A study of Mus musculus with 11 samples.

Results

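DRGs of mice without *Gpr37l1* were compared with DRGs of WT mice 4 weeks after paclitaxel (PTX), a chemotherapy drug that binds microtubules and causes neuropathic pain. The DRG holds the cell bodies of sensory neurons, each wrapped by satellite glial cells (SGCs). The comparison used 5 of the 11 libraries in the series: 2 of *Gpr37l1* KO mice given PTX (numbered 2 and 3) and 3 of WT mice given PTX (numbered 1, 2 and 3). Libraries of 3 untreated WT and 3 untreated KO mice took no part in it, and are used only where values are set side by side. The KO allele is germline and came in a stock of mixed strain, kept with littermates on a C57BL/6 background, so it was in every cell type of the mouse. Adult mice of both sexes were used, and the ages of these animals and the PTX schedule of the RNA-Seq mice are not given in the sources used here. Mouse 3 of each group was labelled female and the others male, so sex and number 3 cannot be told apart. Of 36670 genes in the deposited table, 15028 had a mean FPKM (fragments scaled for transcript length and library size) of at least 0.5 over the 5 libraries and were tested.

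GPR37L1 is an orphan-type G protein–coupled receptor of glial cells, found in SGCs of the DRG and in astrocytes and related glia of the brain. The genes that mark its cell type include *Fabp7*, *Apoe*, *Glul* and the inward rectifier potassium channel *Kcnj10*, which takes up the potassium that active neurons release. In bulk tissue, fewer cells of a type and less RNA per cell cannot be told apart.

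The 5 libraries held 54914928 to 80348732 estimated counts, with the KO libraries at 54914928 and 56747335. *Xist*, the RNA of the inactive X chromosome, was at 8.12 and 9.13 FPKM in the PTX libraries labelled female and at 0.04 to 0.29 in those labelled male. *Ddx3y*, on the Y chromosome, was at 8.32 to 9.84 in the males and at 0.13 and 0.16 in the females. An untreated KO library labelled female went against its label, with *Xist* at 0.05 and *Ddx3y* at 0.02 FPKM, and the genotype differences of untreated mice below are given with and without it where a result rests on them. The labels number the libraries without stating how many animals gave each, so the p-values measure the spread between these libraries.

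*Gpr37l1* (chr1:135160234-135167681, minus strand, mm10) was at 14.56, 31.73 and 25.03 FPKM in WT PTX libraries 1, 2 and 3 and at 0.60 and 1.15 FPKM in KO PTX libraries 2 and 3. All KO values were below all WT values, with means of 0.875 ± 0.389 (SD, n = 2) and 23.8 ± 8.65 (SD, n = 3). The log2 fold change was -4.86 ± 0.44 (SE), and the adjusted p of edgeR's quasi-likelihood test with labelled sex as a covariate was 0.0508, just over the threshold of 0.05. The adjusted p was 0.00155 when all 11 libraries entered 1 fit with edgeR and 2.48e-14 with the DESeq2 Wald test. It was 0.28 in edgeR with no filter on low values. With limma it was 0.214 on log2(FPKM + 1) and 0.168 on log2(FPKM + 0.1). Over 16 alternative settings the gene passed in 6. The gene was past the threshold without WT PTX library 1 (adjusted p = 0.0016) or 2 (3.77e-06), and short of it without WT PTX library 3 (0.0572), KO PTX library 2 (0.144) or KO PTX library 3 (0.0591). In untreated mice the KO libraries held 0.21, 0.25 and 0.29 FPKM and the WT libraries 27.57 to 35.70, a log2 fold change of -7.02 ± 0.19 (adjusted p = 3.99e-05, edgeR), and of -7.27 ± 0.18 without the library that went against its label (adjusted p = 0.000167). The genotype difference of *Gpr37l1* after PTX minus that in untreated mice was 2.24 ± 0.47 on the log2 scale and did not pass the test (adjusted p = 0.72, edgeR), nor did it without that library (2.33 ± 0.56, adjusted p = 0.692). The sources used here do not state which exons the allele lacks.

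In all, 6 genes passed an adjusted p of 0.05 in KO against WT after PTX, which is 0.0399% of those tested. The 4 with higher values in KO were *Gm8210*, *Gm13841*, *Mobp* and *Slc12a5*, and the 2 with lower values were *Pde10a* and *Rpl29*. At an unadjusted p under 0.05, 449 genes were higher (2.99%) and 414 lower (2.75%) in KO. FPKM ranges of the groups did not overlap for 1615 genes higher in KO (10.7%) and 1435 genes lower (9.55%). The median log2 fold change over all genes tested was -0.01. The number of genes called was 13 without WT PTX library 1, 27 without library 2, 51 without library 3, 19 without KO PTX library 2 and 53 without KO PTX library 3. Each of these fits has 1 residual degree of freedom. Without WT PTX library 3 or either KO PTX library it comes from WT PTX libraries 1 and 2 alone, and a lone KO library is assumed to vary as they do. All 6 genes were among the calls in each of these, except that without KO PTX library 2 only *Pde10a*, *Rpl29* and *Gm8210* were. An exact two-sided permutation test of FPKM for 2 against 3 libraries has 10 assignments and cannot go below p = 0.2. The exact test gave that value for 5 of the 6 genes and for *Gpr37l1*, and p = 0.4 for *Mobp*.

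**Figure D1:**
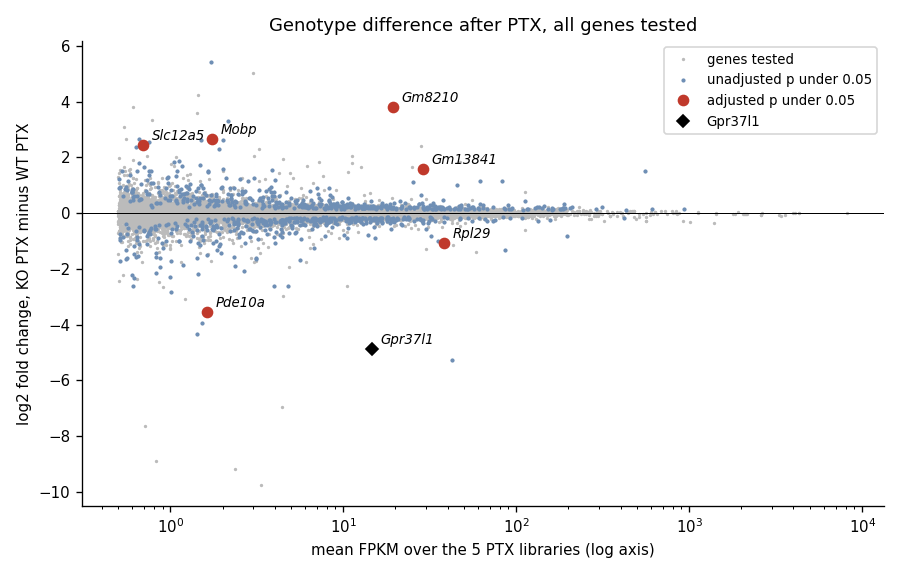
Log2 fold change (KO PTX minus WT PTX, vertical axis) of the 15028 genes tested against mean FPKM over the 5 PTX libraries (log axis). Red points are the 6 genes past the adjusted threshold, blue points have an unadjusted p under 0.05, and the diamond is *Gpr37l1* at -4.86; several genes at the bottom of the plot have larger differences that did not pass.

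*Pde10a* fell in both KO libraries. It encodes a phosphodiesterase that degrades cAMP and cGMP and is best known from striatal neurons of the brain. The gene (chr17:8525372-8986645, plus strand, mm10) was at 2.52, 2.25 and 2.91 FPKM in WT PTX libraries 1, 2 and 3 and at 0.22 in both KO PTX libraries. The groups were far apart for the spread within them (log2 fold change -3.55 ± 0.13, adjusted p = 0.00165, edgeR). The difference was as large in the males, 0.22 against a mean of 2.38 FPKM, as in the females, 0.22 against 2.91. In untreated mice *Pde10a* was at 1.60, 1.91 and 2.40 FPKM in WT and at 2.36, 2.22 and 2.44 in KO, so all 9 other libraries of the series lay between 1.60 and 2.91. The genotype difference after PTX minus that in untreated mice was -3.82 ± 0.18 on the log2 scale (adjusted p = 1.33e-05, edgeR), and -3.90 ± 0.19 without the untreated KO library that went against its label (adjusted p = 8.27e-05). It was the 1 gene that passed this test of the difference. No transcript of another gene matched *Pde10a* at 95% identity over 150 bases or more and 80% of its own length.

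Tested genes next to *Pde10a* did not pass the test. *Mpc1*, *4930506C21Rik* and *Sft2d1*, the nearest 3 before it, had log2 fold changes of 0.01 ± 0.07, -0.19 ± 0.32 and 0.04 ± 0.10. *Qk*, the nearest after it, had -0.12 ± 0.06. The smallest unadjusted p among these 4 was 0.0914, for *Qk*.

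Of 24 genes of cyclic nucleotide phosphodiesterases, 17 were tested and *Pde10a* was the 1 that passed. The other members divide cAMP and cGMP breakdown between cell types and compartments. A further 3 had an unadjusted p under 0.05 and higher values in KO, as had 2.99% of all genes tested. *Pde1b*, which calcium and calmodulin activate, was at 1.80 to 1.91 FPKM in WT and 2.28 and 3.33 in KO (log2 fold change 0.53 ± 0.14). *Pde4a* and *Pde4b*, which are specific for cAMP, had log2 fold changes of 0.41 ± 0.15 and 0.24 ± 0.09. The median over the 17 was -0.00. Among 23 partners of cAMP and cGMP signalling, all tested, none passed, and *Gucy1b1*, a subunit of soluble guanylate cyclase, had an unadjusted p under 0.05 at 1.02 to 1.49 FPKM in WT and 1.61 and 2.16 in KO.

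**Figure D2:**
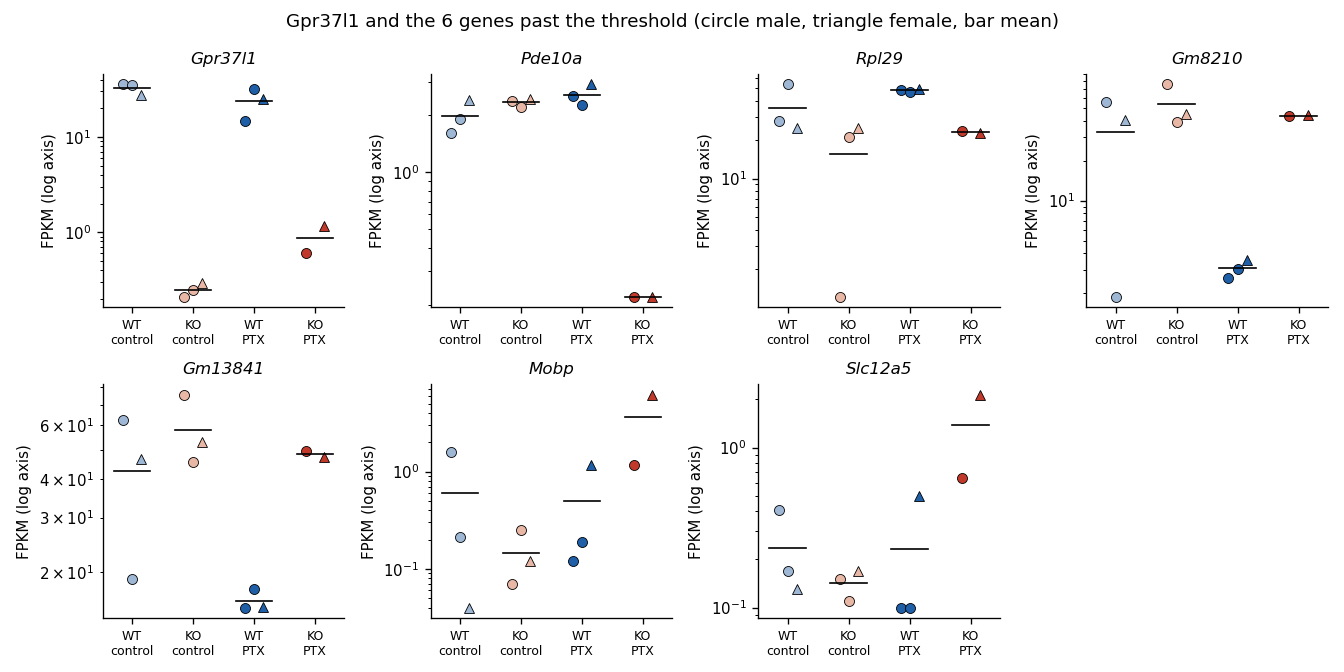
FPKM (log axis) of *Gpr37l1* and the 6 genes past the threshold in each library of the 4 groups; circles are libraries labelled male, triangles female, and bars the group mean. *Pde10a* was at 0.22 in both KO PTX libraries and at 1.60 to 2.91 in all others, whereas *Rpl29*, *Gm8210* and *Gm13841* also varied among untreated libraries of 1 genotype.

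Of the 6 genes, 3 belong to 1 set of near-identical sequences. *Rpl29* encodes a protein of the large ribosomal subunit, and *Gm8210* and *Gm13841* are copies of its coding stretch elsewhere in the genome. In the transcripts of GENCODE release M21, *Gm8210* (chr1:43189156-43189638) and *Gm13841* (chr5:115801677-115802159) are identical to each other over 483 bases, and both differ from the coding sequence of *Rpl29* (chr9:106429454-106431568) at 3 bases. These are C72A, C300T and T423C, with the base of *Rpl29* first, then its position counted from 1 at the first base of the start codon, then the base of the copies. Each falls at the last position of its codon. The sequences are shown because reads that lie within these 483 bases and cover none of the 3 differing bases fit all 3 genes equally. Reads from parts of *Rpl29* outside this stretch are not covered by that statement. Capitals mark the base that differs, and all sequences run 5′ to 3′.
*Rpl29*, bases 58 to 86: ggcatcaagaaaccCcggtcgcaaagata
*Gm8210* and *Gm13841*, bases 58 to 86: ggcatcaagaaaccAcggtcgcaaagata
*Rpl29*, bases 286 to 314: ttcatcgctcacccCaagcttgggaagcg
*Gm8210* and *Gm13841*, bases 286 to 314: ttcatcgctcacccTaagcttgggaagcg
*Rpl29*, bases 409 to 437: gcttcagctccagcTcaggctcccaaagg
*Gm8210* and *Gm13841*, bases 409 to 437: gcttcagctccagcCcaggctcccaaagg

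*Rpl29* fell while both copies rose. *Rpl29* was at 48.64, 46.59 and 49.61 FPKM in WT PTX libraries and at 23.51 and 22.42 in KO PTX libraries, a log2 fold change of -1.07 ± 0.08 (adjusted p = 0.0282, edgeR). *Gm8210* was at 2.61, 3.06 and 3.58 FPKM in WT and at 43.43 and 44.27 in KO, a log2 fold change of 3.80 ± 0.16 (adjusted p = 0.00185). *Gm13841* was at 15.28, 17.53 and 15.32 FPKM in WT and at 49.31 and 47.13 in KO, a log2 fold change of 1.60 ± 0.11 (adjusted p = 0.0282). Values within each group were close and the groups did not overlap.

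The sum over these genes did not show such a difference. In counts scaled to library size by TMM (CPM), *Rpl29* alone averaged 27.7 in KO and 58.7 in WT, *Gm8210* 22.7 and 1.61, and *Gm13841* 24.96 and 8.37. The 3 together were at 76.6 and 74.2 in KO PTX libraries and at 68.3, 67.2 and 70.5 in WT PTX libraries, a ratio of means of 1.10. Over *Rpl29* and all 29 copies in the table, the sum was 85.6 and 82.5 in KO and 82.5, 81.6 and 76.6 in WT, a ratio of 1.05. The levels of the single genes are therefore uncertain, since the counting could split reads between them. Untreated libraries of 1 genotype showed the same division: untreated WT library 2 had *Gm8210* at 1.88 FPKM and *Rpl29* at 53.90, whereas untreated WT library 1 had 55.38 and 27.86, and untreated KO library 1 had *Rpl29* at 1.21 and *Gm8210* at 75.65. When all 11 libraries entered 1 fit, the log2 fold changes were -1.09 for *Rpl29*, 3.81 for *Gm8210* and 1.59 for *Gm13841*, but none passed the test (adjusted p = 0.994 for each, edgeR).

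**Figure D3:**
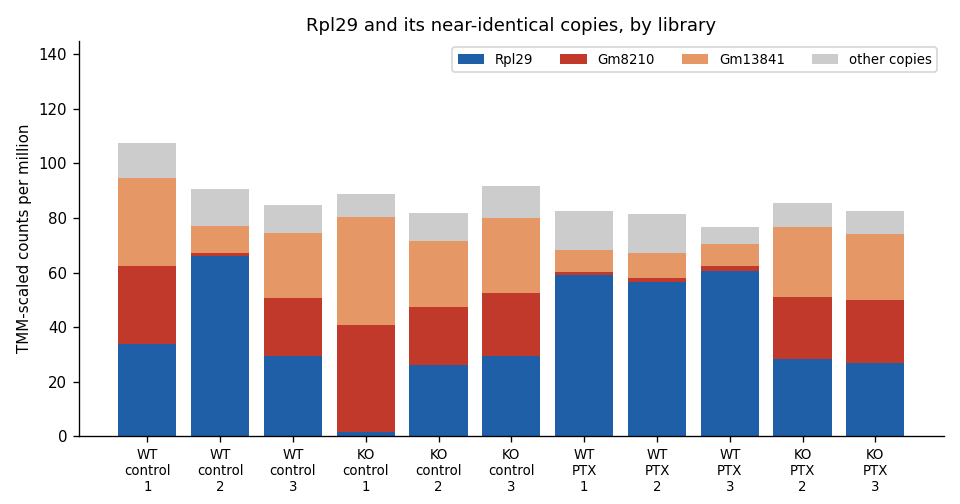
TMM-scaled CPM (counts relative to library size) of *Rpl29*, *Gm8210*, *Gm13841* and the other near-identical copies, stacked by library. The stacks of the 3 named genes are 67.2 to 70.5 high in WT PTX and 74.2 and 76.6 in KO PTX libraries, while the part taken by *Rpl29* is smaller in both KO PTX than in the WT PTX libraries, and differs among untreated libraries of the same group.

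Among the genes named as short of the threshold, *Tdg*, *Ppia*, *Ugt1a6a* and *Gnpnat1* have near-identical copies too. *Tdg* encodes thymine-DNA glycosylase, a DNA repair enzyme, and was at 2.95, 2.87 and 2.64 FPKM in WT and 5.84 and 4.89 in KO (log2 fold change 0.95 ± 0.09, adjusted p = 0.0508, edgeR). Its copy *Tdg-ps2* was at 4.04, 4.01 and 4.92 in WT and 1.60 and 1.12 in KO (adjusted p = 0.455). The summed CPM of *Tdg* and its 4 copies were 37.7 and 30.7 in KO and 23.3 to 23.8 in WT, and so remained apart. In untreated mice these sums were 28.7, 32.0 and 32.9 in WT and 33.5, 26.2 and 31.5 in KO, all above the WT PTX sums. *Ppia*, which encodes cyclophilin A, was at 243.57, 260.82 and 206.74 FPKM in WT and 120.39 and 143.59 in KO, with *Gm10123*, identical to it over 490 bases, at 303.70, 173.03 and 500.84 in WT and 1108.80 and 694.70 in KO. The sum over *Ppia* and its 17 copies gave a ratio of KO to WT of 0.905, against 0.553 for *Ppia* alone. *Ugt1a6a* encodes a glucuronidation enzyme and had a log2 fold change of -1.60 ± 0.22, while *Ugt1a6b*, 98.9% identical over 2297 bases, had 1.27 ± 0.28. *Ugt1a6b* overlaps *Ugt1a6a* on the same strand. In untreated mice *Ugt1a6a* was at 2.85 to 5.66 FPKM in WT and 1.12 to 3.52 in KO. *Ugt1a6b* was at 0.17 to 1.95 in untreated WT and 2.53 to 5.08 in untreated KO. *Gnpnat1*, an enzyme of the hexosamine pathway, had -0.99 ± 0.16, while *Gm7623*, 98.6% identical over 556 bases, had 1.07 ± 0.38.

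*Mobp* and *Slc12a5* were higher in KO. Both are known from the brain and spinal cord: *Mobp* encodes a myelin protein of oligodendrocytes, and *Slc12a5* encodes KCC2, the chloride exporter of central neurons. *Mobp* (chr9:120149707-120176091) was at 0.12, 0.19 and 1.17 FPKM in WT PTX libraries 1, 2 and 3 and at 1.16 and 6.11 in KO PTX libraries 2 and 3. The groups overlapped, since the female WT library was level with the male KO library, and the call rested on the sex covariate (log2 fold change 2.65 ± 0.22, adjusted p = 0.0433, edgeR). *Slc12a5* (chr2:164960802-164999727) was at 0.10, 0.10 and 0.50 FPKM in WT and at 0.65 and 2.13 in KO, a log2 fold change of 2.43 ± 0.21 (adjusted p = 0.0475). The WT PTX means were 0.493 FPKM for *Mobp* and 0.233 for *Slc12a5*, under the filter of 0.5. Both were therefore tested only through their KO values, which were highest in KO PTX library 3. In both genes the female of each genotype was higher than the males. Neither passed without the sex covariate (adjusted p = 0.903 for each, edgeR), where their log2 fold changes were 2.89 for *Mobp* and 2.59 for *Slc12a5*. Without KO PTX library 2, both were at an adjusted p of 0.121, with log2 fold changes of 2.37 for *Mobp* and 2.07 for *Slc12a5*. In untreated mice, WT library 1 held the highest value of each, 1.57 FPKM of *Mobp* and 0.41 of *Slc12a5*.

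*Slc1a2*, *Gfap*, *Camkv* and *Gad1*, which are also genes of central glia or neurons, were ordered alike over the 5 libraries. *Slc1a2*, the astrocyte glutamate transporter, was at 0.35, 0.26 and 1.74 FPKM in WT and 2.26 and 4.98 in KO (log2 fold change 2.31 ± 0.31, adjusted p = 0.345). *Gfap*, the intermediate filament of astrocytes and of activated SGCs, was at 0.68, 0.26 and 0.98 in WT and 3.51 and 4.62 in KO (2.61 ± 0.38, adjusted p = 0.442). *Camkv*, a kinase-like protein of neuronal vesicles, was at 0.39, 0.37 and 1.06 in WT and 1.36 and 2.29 in KO (adjusted p = 0.442). *Gad1*, which makes GABA, was at 0.10, 0.07 and 0.60 in WT and 0.68 and 1.73 in KO (adjusted p = 0.455). In all 4 genes the KO PTX library 3 was the highest, KO PTX library 2 the next, and WT PTX library 3 above the other WT libraries. The groups did not overlap, but none of these passed the adjusted test. The WT values of *Gad1* averaged under the filter of 0.5 FPKM, so it was tested only through its KO values.

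The marker lists of these cells gave mixed values. Of 14 astrocyte genes, 12 were tested, with a median log2 fold change of 0.33. At an unadjusted p under 0.05, 5 were higher (*Slc1a2*, *Ntsr2*, *Aqp4*, *Slc6a11* and *Fgfr3*) and 1 lower (*Mlc1*). Over all genes tested, 2.99% were higher and 2.75% lower at that level. Of 15 oligodendrocyte genes 7 were tested, and *Mobp* and *Ermn* were higher at that level. The log2 fold change was above 0 in 4 of these 7 and below 0 in 3, with a median of 0.08. Of the spinal cord neuron genes, 15 were in the table and 5 were tested, with *Gad1* higher at that level. *Gad1* was the 1 gene of these 5 with a log2 fold change above 0, 4 were below 0, and the median was -0.10. Summed FPKM of the astrocyte list was 34.8, 34.5 and 41.1 in WT and 36.3 and 52.99 in KO, that of the oligodendrocyte list 74.2, 79.2 and 68.4 in WT and 66.3 and 80.9 in KO, and that of the spinal cord neuron list 8.90, 8.02 and 10 in WT and 8.48 and 15.4 in KO. *Mog*, a defining marker of oligodendrocytes, was below the filter at 0.09, 0.00 and 0.26 FPKM in WT and 0.18 and 1.30 in KO. *Slc6a5*, which marks glycinergic neurons, was listed at 0 in all PTX libraries but KO library 3, at 0.83, and *Chat*, of motor neurons, was listed at 0 in all 5. The part of such cells in the differences of *Mobp* and *Slc12a5* was not tested.

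**Figure D4:**
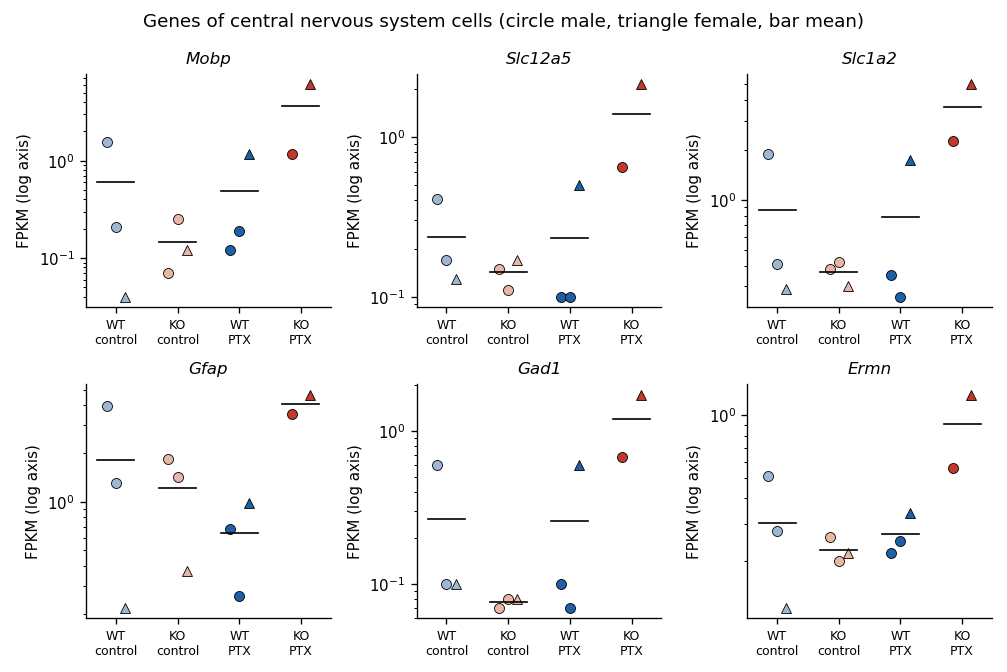
FPKM (log axis) of 6 genes of central nervous system cells in each library; circles are libraries labelled male, triangles female, and bars the group mean. In each gene KO PTX library 3 (triangle) was the highest of the 11 libraries, and *Mobp* of the male KO PTX library (1.16) was level with the female WT PTX library (1.17).

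The marker genes of SGCs did not pass the test. Of 15 such genes, all tested, 2 were higher (*Gfap* and *Slc1a3*) and 2 lower (*Fabp7* and *Cdh19*) at an unadjusted p under 0.05. The shares of all genes tested at that level were 2.99% higher and 2.75% lower. The median log2 fold change of the 15 was -0.00. *Apoe*, a lipid carrier, was at 731.49, 888.50 and 860.27 FPKM in WT and 754.51 and 977.38 in KO (0.02 ± 0.11). *Sparc*, a matrix glycoprotein, was at 193.42, 200.90 and 162.35 in WT and 146.75 and 205.94 in KO (-0.09 ± 0.16). *Slc1a3*, the glutamate transporter of SGCs, was at 1.74, 2.17 and 2.26 in WT and 2.70 and 2.93 in KO (0.42 ± 0.12). *Fabp7*, a fatty acid–binding protein, was at 163.93, 182.58 and 98.69 in WT and 138.10 and 84.16 in KO (-0.29 ± 0.07). The groups overlapped in *Apoe*, *Sparc* and *Fabp7*, and *Fabp7* was low in the females of both genotypes.

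Of 15 inward rectifier channel genes 11 were tested, and none had an unadjusted p under 0.05. *Kcnj10*, which encodes Kir4.1 of SGCs, was at 16.80, 16.58 and 16.81 FPKM in WT and 18.00 and 18.35 in KO, a log2 fold change of 0.11 ± 0.05 (unadjusted p = 0.0776). *Kcnj3*, a subunit of G protein–gated channels, was at 6.31, 6.11 and 7.03 in WT and 6.54 and 6.78 in KO (0.02 ± 0.08). *Kcnj12* and *Kcnj14* had -0.06 ± 0.11 and -0.45 ± 0.30. Of the relatives and proposed ligand genes of GPR37L1, 8 of 11 were tested and none but *Gpr37l1* had an unadjusted p under 0.05. *Gpr37*, the closest relative, was at 2.35, 2.67 and 2.45 FPKM in WT and 2.61 and 2.83 in KO (0.12 ± 0.11), and *Psap*, the precursor of a proposed peptide ligand, was at 554.91 to 575.12 in WT and 561.30 and 558.15 in KO (-0.01 ± 0.05). *Alox12*, a lipoxygenase, had 0.34 ± 0.21, and *Alox15* was below the filter, at 0.05 FPKM or less in all 5 libraries.

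Sensory neuron genes showed small differences. None of the 20 nociceptor genes passed, and 1 had an unadjusted p under 0.05: *Mrgprd*, a receptor of nonpeptidergic nociceptors, at 25.39, 35.55 and 40.67 FPKM in WT and 20.74 and 27.31 in KO (log2 fold change -0.57 ± 0.14). At that level, 2.75% of all genes tested were lower. *Calca*, the gene of CGRP, had a log2 fold change of 0.04 ± 0.05, *Trpv1*, the capsaicin receptor, 0.11 ± 0.05, and *Tac1*, the gene of substance P, -0.03 ± 0.10. The medians were 0.03 for nociceptor genes and 0.01 for the 15 genes of large-diameter neurons, where none had an unadjusted p under 0.05, *Nefh* included (0.08 ± 0.06). None of 12 voltage-gated sodium channel genes did either, and *Scn10a*, the Nav1.8 channel, was at 95.22 to 105.02 FPKM in WT and 91.15 and 116.22 in KO.

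*Cacna2d2* was short of the threshold and *Samd11* was too. *Cacna2d2*, an auxiliary subunit of voltage-gated calcium channels, was at 6.25, 5.33 and 6.44 FPKM in WT and 10.21 and 13.16 in KO, a log2 fold change of 0.91 ± 0.09 (adjusted p = 0.0893, edgeR). In untreated mice it was at 6.37 to 10.78 in WT and 10.46 to 15.87 in KO, a log2 fold change of 0.53 (unadjusted p = 0.0544), and of 0.82 (0.0109) without the library that went against its label. *Samd11* was at 3.89, 3.90 and 3.61 in WT and 0.72 and 1.15 in KO, a log2 fold change of -2.07 ± 0.21 (adjusted p = 0.0893). Its antisense neighbour *Gm47252* overlaps it and had -2.61 ± 0.51, and the use of strand in the counting is not given in the sources used here. Untreated WT libraries held 0.89, 4.26 and 0.99 FPKM of *Samd11*, and the values of 0.89 and 0.99 lie between those of the KO PTX libraries. The other genes named by rank were *Gnpnat1*, given above with its copy, *Phtf1os* (-1.66 ± 0.29), *Gm49380* (-2.83 ± 0.46, which overlaps *Rnf26*) and *Gm49749* (5.43 ± 0.81, which overlaps *Pcnx*). *Gm49749* was at 8.31 FPKM in KO PTX library 2 and at 0.01 in KO PTX library 3, so its value rested on 1 library. The adjusted p of these 4 was 0.442 to 0.657.

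Of 24 nerve injury genes, which sensory neurons turn on after axon damage, 21 were tested and none passed. At an unadjusted p under 0.05, *Gadd45g*, *Stmn4* and *Ecel1* were higher and *Anxa1* lower in KO. Over all genes tested, 2.99% were higher and 2.75% lower at that level. *Atf3*, the standard marker of injured neurons, was at 5.09, 11.32 and 1.90 FPKM in WT and 8.89 and 2.67 in KO, with the female low in both genotypes (0.26 ± 0.33). *Sprr1a*, a growth-associated protein, was at 1.38, 14.94 and 0.21 in WT and 9.32 and 0.24 in KO (0.18 ± 0.96). *Gap43*, a protein of growing axons, was at 98.16 to 114.71 in WT and 117.98 and 108.29 in KO (0.12 ± 0.06). The spread within a group was larger than the difference between genotypes in *Atf3* and *Sprr1a*. *Atf3* was higher in untreated WT libraries 1 and 2, at 34.78 and 60.16 FPKM, than in any PTX library.

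Genes of immune cells and of the interferon response did not pass either. No macrophage gene of 18 tested had an unadjusted p under 0.05, and the median was -0.00. *Cd68*, of lysosomes, and *Mrc1*, the mannose receptor, had log2 fold changes of 0.00 ± 0.25 and 0.10 ± 0.12. Of 11 tested cytokines and pattern receptors, *Cx3cl1* (0.77 ± 0.14), the neuronal chemokine fractalkine, and *Ccl2* (0.87 ± 0.35), which recruits monocytes, were higher at an unadjusted p under 0.05, with overlapping groups. *Il1b*, *Il6* and *Tnf* were below the filter. Of 17 tested interferon-stimulated genes, 3 were higher at that level (*B2m*, *Oasl2* and *H2-K1*) and 1 lower (*Ifi27*). The shares of all genes tested at that level were 2.99% higher and 2.75% lower. *B2m*, the light chain of MHC class I, was at 168.81, 167.21 and 171.53 FPKM in WT and 219.92 and 210.28 in KO, a log2 fold change of 0.35 ± 0.05 (adjusted p = 0.462, edgeR). Its groups were apart and its spread small.

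No fibroblast or matrix gene passed the test. Of 18 tested, 4 (*Ptgds*, *Fn1*, *Pdgfra* and *Slc6a13*) were lower in KO at an unadjusted p under 0.05, against 2.75% of all genes tested. The log2 fold change was below 0 in 16 of the 18, against 52.4% of all genes tested, with a median of -0.27. *Ptgds*, the prostaglandin D synthase of leptomeningeal cells among others, was at 170.99, 100.43 and 75.61 FPKM in WT and 47.15 and 36.47 in KO (-1.32 ± 0.24, adjusted p = 0.657). *Col1a1*, of type I collagen, was at 17.58, 19.57 and 12.67 in WT and 8.22 and 19.18 in KO. The summed FPKM of the list was 703, 664 and 570 in WT and 424 and 581 in KO, so KO PTX library 2 was the lowest and the groups overlapped. Of 16 tested skeletal muscle genes, none had an unadjusted p under 0.05, and the sum of the list was 83.1, 267 and 12.4 in WT and 150 and 104 in KO. The log2 fold change was above 0 in 15 of these 16 and below 0 in 1, with a median of 1.36. Muscle is no part of the DRG, and the range of the sum within WT was wider than the difference between the groups. Among 13 tested red cell and neutrophil genes, 12 had a log2 fold change below 0, with a median of -0.40. None had an unadjusted p under 0.05. The sums of the red cell and neutrophil list were 344, 121 and 106 in WT and 98.5 and 168 in KO, and those of the endothelial and mural list 141, 156 and 163 in WT and 109 and 170 in KO, where *Rgs5*, of pericytes, was lower at an unadjusted p under 0.05. Of the adipocyte list 3 genes were tested, with none at that level. The part of tissue composition in the differences was not tested.

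Myelinating Schwann cell genes had a median log2 fold change of -0.10 over 16 tested genes, and *Ncmap* alone had an unadjusted p under 0.05 (-0.40 ± 0.11). Tubulin genes, whose products PTX binds, had a median of 0.05 over 15 tested, and *Tubb4a*, a neuronal isotype, was higher at an unadjusted p under 0.05 (0.17 ± 0.06). *Arc*, an immediate early gene of active neurons, was the 1 of 15 tested with an unadjusted p under 0.05 (0.54 ± 0.21). Of 18 tested stress response genes, *Hmox1* was higher (0.31 ± 0.09) and *Hspa5*, the chaperone of the endoplasmic reticulum, lower (-0.21 ± 0.06) at that level. Of 22 cholesterol synthesis genes *Ebp* was lower (-0.23 ± 0.07), and of 11 tested cell cycle genes *Mcm5* was higher (0.47 ± 0.18). The log2 fold change was above 0 in 10 of these 11 cell cycle genes and below 0 in 1, with a median of 0.35. Over all genes tested, it was below 0 in 52.4%. None of the 18 circadian clock genes or of the 13 mitochondrially encoded genes had an unadjusted p under 0.05. At that level, 2.99% of all genes tested were higher and 2.75% lower, so single members of such lists are no result about the lists.

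Genes near *Gpr37l1* on chromosome 1 were examined with a window of 10 Mb on each side. Of 105 other genes tested there, 16 had an unadjusted p under 0.05 after PTX, 15.2% against 5.74% of all genes tested, and none passed the adjusted test. Of these, 8 were higher and 8 lower in KO, and 4 had an unadjusted p under 0.01. *Ppp1r15b*, a subunit of the phosphatase of eIF2α, was at 8.70 to 8.94 FPKM in WT and 7.20 and 5.95 in KO (log2 fold change -0.41 ± 0.09). *Nav1*, a neuronal microtubule-associated protein, had -0.47 ± 0.10, *Phlda3*, a target of p53, -0.39 ± 0.10, and *Chil1*, a chitinase-like protein, 1.57 ± 0.39.

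Untreated mice share no library with this comparison. In them, 23 of the 105 genes had an unadjusted p under 0.05 for genotype, against 674 of all 15028 genes tested. Without the library that went against its label, 16 of the 105 had one. In both sets of mice 7 of the 105 had one. All 7 had the same direction in both. The numbers among all genes tested were not counted for any of these, so they cannot be called particular to the region. *Nav1* had a log2 fold change of -0.53 and *Phlda3* of -0.71 in untreated mice. *Shisa4* had -0.34 ± 0.10 after PTX and -0.77 without it, *Timm17a* of the mitochondrial import machinery -0.26 ± 0.08 and -0.36, and *Ddx59*, an RNA helicase, 0.47 ± 0.13 and 0.62. These 5 genes start within 1.26 Mb of the start of *Gpr37l1*. *Cntn2* and *Dars* lie farther away, at -2.65 and -6.80 Mb. Without the untreated KO library that went against its label, 6 genes had an unadjusted p under 0.05 in both sets of mice. Of these, 5 (*Nav1*, *Phlda3*, *Shisa4*, *Timm17a* and *Ddx59*) had the same direction. Here too the numbers among all genes tested were not counted.

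**Figure D5:**
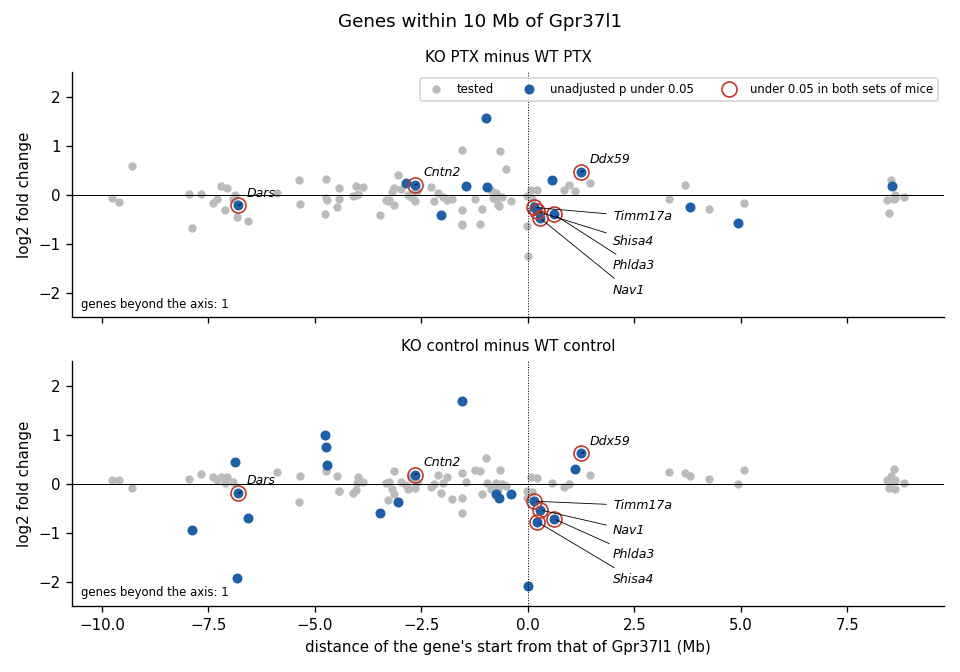
Log2 fold change between KO and WT (vertical axis) after PTX (top) and without PTX (bottom) of the 105 tested genes within 10 Mb of *Gpr37l1*, against the distance of their starts in Mb. Blue points have an unadjusted p under 0.05, and rings mark the 7 genes with one in both sets of mice; 1 gene in each panel lies beyond the axis, and *Gpr37l1* is not drawn.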

How the data were processed

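Poly(A) RNA of mouse DRGs was sequenced with a stranded kit. The authors deposited FPKM values, scaled for transcript length and library size and rounded, and estimated counts per gene without normalization, in 1 table for 11 libraries. The submitters' processing notes name cutadapt, FastQC, HISAT2, StringTie and mm10, with no versions. All library columns were mapped to samples by their names, and 0 were unmapped. The descriptions number the KO PTX libraries 2 and 3, and the titles 1 and 2; the descriptions were used.

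Estimated counts, all whole numbers, went into edgeR 4.0.16 under R 4.3.3 (TMM, quasi-likelihood F test, genotype with labelled sex, Benjamini-Hochberg) over 15028 genes whose mean FPKM in the 5 PTX libraries reached 0.5. SE is the fold change divided by the root of F. The fit left 2 residual degrees of freedom. The script was tested on simulated counts for these genes. KO and WT controls were fitted on their own with the same genes, and the interaction over all 11 libraries. Depth was 54914928 to 80348732 estimated counts per PTX library.

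Copies were found with BLAST+ 2.17.0 among GENCODE M21 transcripts (at least 95% identity over 150 bases and 80% of the copy). Of the gene identifiers, 36532 were in M21 and 33463 had the same coordinates. Named genes were *Gpr37l1*, all genes past the threshold, the smallest p up to 10 in each direction, genes within 10 Mb of *Gpr37l1* with p under 0.01, and up to 4 members of each list; members that make up a count of 5 or fewer, *Gm10123*, *Ugt1a6b*, *Gm7623* and the genes with low p in both sets of mice were named after their values were seen. The members and lists were chosen with earlier results of these data known. DESeq2 1.42.0 and limma 3.58.1 (log2(FPKM + 1) and log2(FPKM + 0.1)), other normalizations, filters and library sets were the alternatives. Some genes are not reported here.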

Additional observations from a re-analysis of the deposited data

Results flagged for a closer look

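The genotype difference of *Pde10a* after PTX departed from that in untreated mice, by a test of the difference itself. The interaction was -3.82 ± 0.18 (SE) on the log2 scale, with an adjusted p of 1.33e-05 in edgeR over 15028 genes. Both KO PTX libraries held 0.22 FPKM, against 2.22 to 2.44 in the 3 untreated KO libraries and 2.25 to 2.91 in the 3 WT PTX libraries.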

How the results depend on the processing

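The number of genes past the threshold, 6, was 5 without the sex covariate, 6 with DESeq2 size factors or upper quartile scaling, 5 with a mean FPKM of at least 1 and 4 with limma on log2(FPKM + 0.1). It was 2 with all 11 libraries in 1 fit, 2 with no filter, 2 with limma on log2(FPKM + 1), 63 with the DESeq2 Wald test, and 13 to 53 without 1 library each. With the male libraries alone, a setting chosen after seeing the data, 45 genes passed, 4 of them among the 6. That fit, and those without a KO PTX library, hold 1 KO library, assumed to vary as WT PTX libraries 1 and 2 do. The causes were not tested. With the replicate number as a block in place of sex, 13 genes passed, among them all 6. Same-numbered KO and WT libraries are of different mice, and the labels state no link between them beyond number and sex. Whether they share a batch is not given. With 2 pairs, the differences between numbers 2 and 3 correlated at 0.11 over genes between KO and WT. *Pde10a* kept its direction in all 16 alternatives and its call in 15, all but limma on log2(FPKM + 1) (adjusted p = 0.0802). *Mobp* and *Slc12a5* kept their direction in all, and their calls in 9 of 16 and 8 of 15. *Slc12a5* was not tested with a mean FPKM of at least 1. *Gpr37l1*, short of the threshold in the main fit, kept its direction in all 16 and passed in 6. The value of *Gm49749* was -0.016 without KO PTX replicate 2 and up to 6.21 without another library. In untreated mice 1 gene passed for genotype, with or without the covariate, and 2 without the KO library that went against its label. The interaction called 1 gene in every setting run. The alternatives covered *Gpr37l1* and the genes named by the threshold, by rank or as low in p near *Gpr37l1*. Genes named only as members of a list were not run under them. Values of the genes covered stayed on their side of the threshold in 310 cases, with 49 now past it, 22 no longer past it and 1 reversed.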
